A study of Caenorhabditis elegans with 16 samples.

Results

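The genes described here are the chemoreceptor genes of the Srg superfamily of Caenorhabditis elegans, taken as every gene whose name is srg-, srt-, sru-, srv-, srx- or srxa- followed by digits. The rule found 245 of the 18570 genes in the count table: 79 srx, 53 srg, 40 srt, 37 sru, 23 srv and 13 srxa genes. The WBcel235 annotation lists 309 genes with such names, and those outside the table, srg-36 among them, were not analysed here.

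Genes of this superfamily encode serpentine receptors that couple to G proteins and sit in the sensory cilia of chemosensory neurons. The worm senses soluble and volatile chemicals with a small set of ciliated neurons, the amphid neurons in the head and the phasmid neurons PHA and PHB in the tail, and each of these neurons is known to carry many receptor types. Ligands are known for few members: srg-36 and srg-37 encode receptors of an ascaroside pheromone that promotes dauer arrest, and srx-43 and srx-44 encode receptors of an indole ascaroside that alters foraging.

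The study profiled sorted neurons of hermaphrodites, labelled wild type and at the L1 stage (L1/L2 for the oldest), by droplet single-cell RNA sequencing (10x Chromium) in 16 libraries of 13 groups. Ages are hours post hatch. The libraries, named by what was sorted, were command interneurons (strain NC3581, sra-11, inx-6 and glr-1 reporters, 12 to 16 h), sensory neurons (PS9221, tax-4 and ocr-2 reporters, 14 to 16 h), pan-neuronal (OH10689, a nuclear rab-3 reporter, 2 libraries, 11.5 to 14.5 h), unc-86 (kyIs262, unc-86 with odr-1 reporters, 12 to 15 h), eat-4 (OH9625, an eat-4 reporter with the rol-6(su1006) marker, 12 to 15 h) and flp-7 (NY2066, 2 libraries, 14 to 17 h). In 3 experiments, strains were mixed before sorting: ceh-34 and unc-4 (NC3583 with NC2957, 1 live and 1 methanol-fixed library, 14 to 17 h), ceh-10, mec-3, nlp-13 and unc-47 (OH16003, EG1285, which also carries lin-15B and lin-15A(n765), ZM5488 and uIs152, 13.5 to 17 h), and unc-4c, ceh-2 and acr-2 (CZ631, NC3523 and PS3504, which also carries unc-119(ed4), 13 to 17 h). P-lineage progenitors and neurons (UD381, hlh-3 reporters with odr-1::gfp) were taken at 11 to 14 h, 15.5 to 18.5 h and, in 2 libraries, 21 to 24 h. A transgene's promoter decides which cells a library holds, so classes differ in how many libraries carry them.

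Levels are given in CPM, the UMIs (counted molecules) of a gene summed over the cells of a class and scaled by all UMIs of those cells, with exact 95% Poisson intervals that cover counting error only. UMIs tag molecules, so CPM values were not divided by gene length. A member was called detected in a class of at least 20 cells when it had at least 50 CPM and 10 UMIs there. The deposited annotation gave 150423 cells in 177 such classes, of which 16 are amphid or phasmid classes, 109 other neurons, 16 progenitors and 36 non-neuronal. ASE was also summed over its left and right cells, and AWC over its ON and OFF cells, which gives 14 chemosensory classes. Of 42 marker genes listed for these 14 classes, 37 were in the table and 33 of those were at least 10-fold higher in their own class than over all other cells. The authors' naming of classes may have used receptor genes, so the class in which a member is high is not independent of the name. Library totals spanned 1798814 to 50689801 UMIs. The libraries shared 2756 cell barcodes, in 5544 cells (3.66%), which were kept.

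In all, 71745 UMIs came from the 245 members, 0.0275% of the total. Single members had between 5 and 8233 UMIs, with a median of 92, and the 10 most abundant held 44% of them. The chemosensory classes carried 59.4% of the members' UMIs in 10454 cells, at a summed level of 4439 CPM (4397 to 4482). Other neurons had 272 CPM, progenitors 65.9 CPM and non-neuronal cells 46.9 CPM. At least 1 member UMI was present in 61.0% of chemosensory cells (median depth 724 UMIs), against 4.27% of muscle cells (median depth 2610 UMIs) and 1.06% of epidermal cells (median depth 128 UMIs) taken as background. In intestine the share was 5.03% (median depth 124 UMIs). Summed levels were 14.6 CPM in muscle, 35.1 CPM in epidermis and 237 CPM in intestine. The last included srv-1 at 120 CPM and sru-40 at 76.3 CPM.

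Of the 245 members, 145 (59.2%) were detected in some class, 132 of them in a chemosensory class. By the same threshold 12685 of all 18570 genes were detected in some class, and 5613 in a chemosensory class. For 118 members the chemosensory classes were the only site that passed the threshold, 14 were also detected elsewhere, and 13 were detected elsewhere alone. By family, 48 of 79 srx, 28 of 53 srg, 22 of 40 srt, 21 of 37 sru, 18 of 23 srv and 8 of 13 srxa genes were detected. Of the detected members, 93 (64.1%) were in a single class, 27 in 2, 21 in 3 to 5 and 4 in more than 5. Under the same threshold 70.5% of the detected genes of other chemoreceptor families and 19.8% of all detected genes were in a single class.

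**Figure D1:**
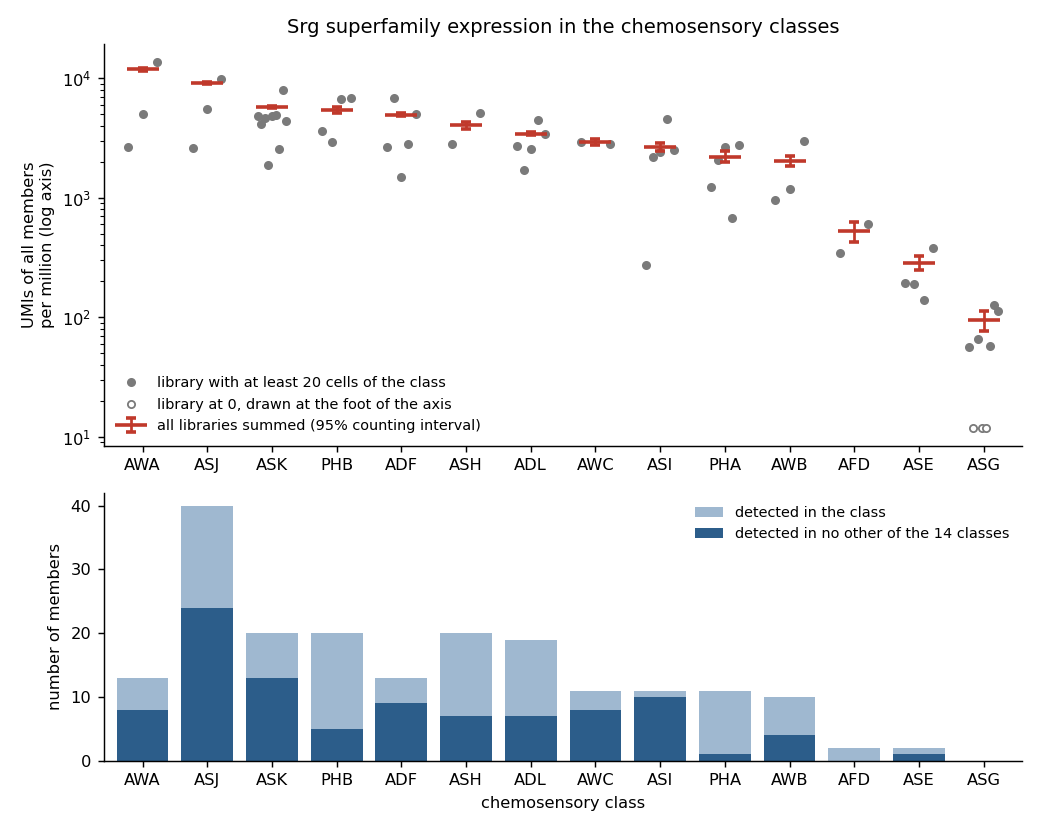
Summed level of all 245 members (upper panel, CPM on a log axis) and number of detected members (lower panel) in the 14 chemosensory classes, in order of level. Grey points are libraries with at least 20 cells of the class, open points are libraries at 0, and red bars are all libraries summed with the 95% counting interval; AWA stands highest at 11845 CPM, ASJ has the most detected members with 40, and ASG stands lowest with 94.4 CPM and none.

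Chemosensory cells stood above the other neurons wherever both were well filled. Over the 12 libraries that held 50 or more cells of both kinds, the members' summed level was between 1424 and 6135 CPM (median 3145) in chemosensory cells and between 134 and 1021 CPM (median 294) in other neurons. The ratio was 3.95 to 24.9 (median 10.9), and the direction was the same in 12 of 12 libraries. The sensory neuron library had the highest level on both sides, 6135 CPM in chemosensory cells and 1021 CPM in other neurons. Of the 1373 member UMIs in its other neurons, 1109 were srg-25 in AQR. In the second flp-7 library, 2774 of 5064 were srx-2 in AIN. The 4 P-lineage libraries held 10 to 28 chemosensory cells each and were not part of this comparison.

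**Figure D2:**
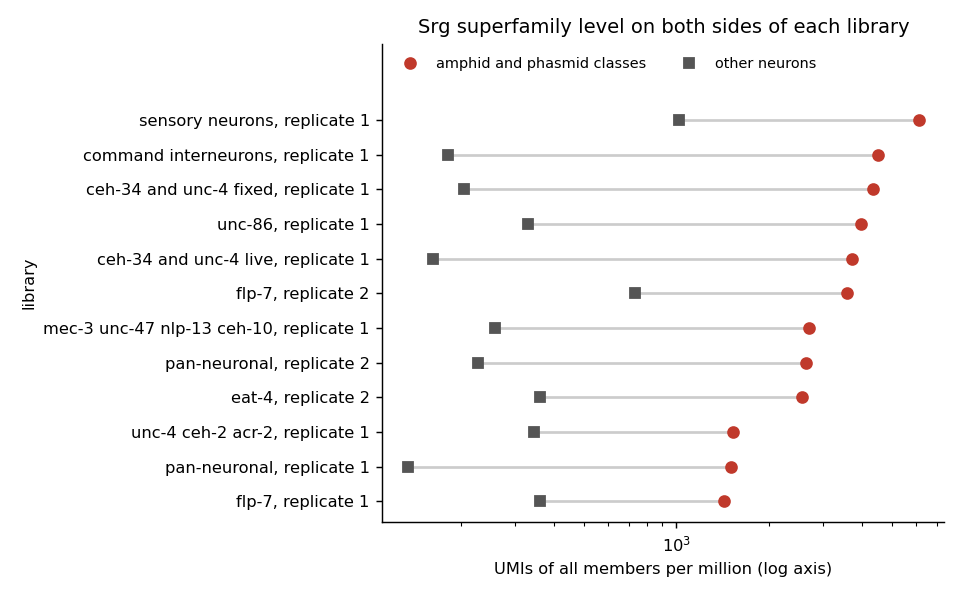
Summed level of all members (CPM, log axis) in the amphid and phasmid classes (red circles) and in all other neurons (grey squares) of the 12 libraries that held 50 or more cells of both kinds. The circle lies to the right of the square in 12 of 12 libraries.

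The same question was asked gene by gene with edgeR's quasi-likelihood test on UMIs summed per library and side, with library as a block, calling genes at an adjusted p under 0.05 and a change of 1 or more on the log2 scale in either direction. The usual filter on low counts left 7 members, since a receptor of a single class is sparse in such sums. Of these 7, 2 were higher in chemosensory cells and 0 were lower, beside 15.9% higher and 19.8% lower of the 6137 genes tested. At an unadjusted p under 0.05, 2 were higher and 0 lower, and DESeq2 called 3 higher and 0 lower. Averages over libraries with a ± are CPM on library sizes scaled by edgeR's TMM factors, so they differ from the mean of the plain CPM values of single libraries. srx-19 averaged 342 ± 231 CPM in chemosensory cells and 0.90 ± 0.84 CPM in other neurons (SD, n = 12 libraries), a log2 fold change of 8.51 (SE 0.35, edgeR adjusted p 1.81e-10). srg-5 averaged 103 ± 49.9 CPM in chemosensory cells and 0.23 ± 0.36 CPM in other neurons, a log2 fold change of 8.44 (SE 0.46, edgeR adjusted p 1.11e-09). Both were higher in 12 of 12 libraries. Both had almost no UMIs in other neurons and so passed the filter through the side where they are high. For that reason the count of 2 in 7 says nothing of the members as a whole. With cells of at least 500 UMIs neither was among the calls made with the filter, and with a minimum of 20 cells srx-19 was not; without the filter, cells of at least 500 UMIs gave log2 fold changes of 8.32 for srx-19 and 8.69 for srg-5 (edgeR adjusted p 1.38e-12 and 3.50e-12). The 5 members that passed the filter and were not called, srv-7, srt-42, srx-45, srx-2 and srv-6, each had a detected site among other neurons.

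Without the filter, 240 members could be tested. Chemosensory cells had 159 higher and 6 lower, beside 16.9% higher and 14.6% lower of all 17691 genes. The members' median log2 fold change was 4.03, against -0.25 over all genes. The higher calls covered 41 of 52 srg, 21 of 39 srt, 24 of 36 sru, 15 of 23 srv, 51 of 78 srx and 7 of 12 srxa genes tested. After srx-19 and srg-5, the smallest p-values belonged to srx-114, srv-34 and sru-1. srx-114 averaged 59.1 ± 37.8 CPM in chemosensory cells and 0.35 ± 0.53 CPM in other neurons, srv-34 180 ± 177 and 0.58 ± 1.06 CPM, and sru-1 58.9 ± 40.6 and 0.13 ± 0.32 CPM in the same order (SD, n = 12 libraries). With DESeq2 in place of edgeR, an alternative chosen after the data were seen, 61 were higher, 60 of them among the 159. Fitted fold changes of members at 0 in most libraries depend on the prior count.

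The 6 members that were lower in chemosensory cells were srt-48, sru-44, srg-65, srx-17, srg-25 and srx-115. Of the 64 UMIs of srt-48, 62 were in AQR and all 20 of sru-44 were in PQR, a pair of oxygen-sensing neurons that border the body cavity. Of the classes in which they were detected, srx-17 was highest in AVL, a motor neuron of the defecation cycle, srx-115 in RID and srg-25 in AQR. srx-115 had 220 CPM in DA1, above RID, but from 5 UMIs. srg-65 had 2 UMIs in chemosensory cells and 22 in other neurons, and was detected in no class. DESeq2 without the filter called 0 of the 6 and gave srt-48, sru-44 and srg-65 positive log2 fold changes of 2.13, 2.31 and 1.92. Without the sensory neuron library the lower calls were srg-37, srg-69 and srx-17.

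AWA, an olfactory neuron for attractive odours, had the highest summed level, 11845 CPM, with a member UMI in 90.9% of its 506 cells. srx genes made up 75.5% of it. srx-68 alone had 5837 CPM (5615 to 6065), 49.3% of AWA's member UMIs, with a UMI in 81.6% of AWA cells against 0.00931% of muscle cells. By library it had 1262 and 2460 CPM in the pan-neuronal libraries and 6685 CPM in the sensory neuron library, which supplied most of the cells. The next members in AWA were srx-19 with 983 CPM and srv-34 with 943 CPM. srx-19 had 505, 324 and 1120 CPM in the same 3 libraries, while srv-34 had 0, 0 and 1126 CPM, so its AWA signal came from the sensory neuron library among those with 20 cells. Against the pooled other chemosensory classes, srx-68 averaged 3719 ± 3984 CPM in AWA and 4.03 ± 6.99 CPM in the others (SD, n = 3 libraries), a log2 fold change of 9.68 (SE 0.90, edgeR adjusted p 4.64e-24). Members tested in this way here and below were mostly picked for their high level in the class. Sparse members also pass the low-count filter through that class. Their p-values are therefore descriptions and no independent support.

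ASJ, which takes part in dauer recovery and in sensing pheromone and light, had fewer UMIs per member and by far more members. Its summed level was 9085 CPM, with a member UMI in 91.7% of 1098 cells, and 40 members were detected, against 20 in the next classes. They came from all 6 families: 13 srx, 10 sru, 8 srg, 7 srv, 1 srt and 1 srxa. No member led: srx-84 had 737 CPM, srv-14 650 CPM and srx-80 580 CPM, together 21.7% of the class's member UMIs. By library, srx-84 had 114 and 721 CPM in the pan-neuronal libraries and 764 CPM in the sensory neuron library. srv-14 had 114, 349 and 697 CPM, and srx-80 76.0, 256 and 636 CPM, in that order. The first pan-neuronal library, with 50 ASJ cells and the lowest median depth of all libraries (227 UMIs), was lowest for each of the 3.

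ASK, a pheromone-sensing neuron found in more libraries than any other, had 5733 CPM and 20 detected members. srx-19 had 1700 CPM there, with a UMI in 55.8% of 1975 cells. Over 9 libraries it ranged from 668 through a median of 1272 to 2491 CPM. AWA had less in the pan-neuronal libraries, but from 4 and 5 UMIs, with intervals of 138 to 1293 and 105 to 755 CPM. In the sensory neuron library AWA had 1120 CPM, within the range of ASK. srv-34 had 736 CPM (0 to 877 CPM by library, median 693) and sru-3 342 CPM (0 to 485 CPM, median 185). Both were listed at 0 throughout the first flp-7 library, in which only 24 of the 245 members had any UMI. Against the other chemosensory classes srx-19 averaged 1439 ± 606 CPM in ASK and 33.5 ± 32.2 CPM in the others (SD, n = 9 libraries), a log2 fold change of 5.91 (SE 0.46, edgeR adjusted p 2.25e-07). The ASK member with the smallest p was srv-24, at 253 ± 89.9 CPM in ASK and 4.45 ± 9.02 CPM in the others.

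**Figure D3:**
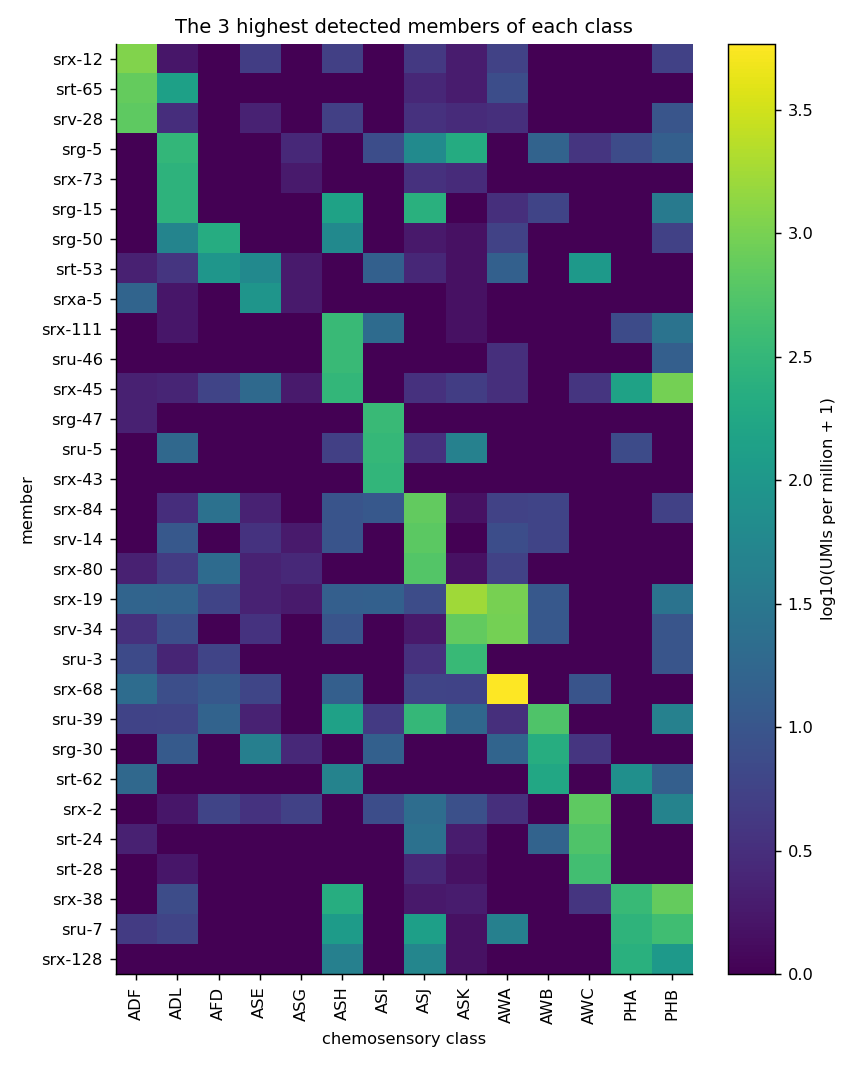
Level of the 3 highest detected members of each chemosensory class (rows) in all 14 classes (columns), as log10 of CPM plus 1. Most rows have 1 bright cell; srx-19 and srv-34 are bright in ASK and AWA, and srx-45, srx-38 and sru-7 in PHB, PHA and ASH.

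ADF, the serotonin-producing amphid neuron, had 4938 CPM and 13 detected members, led by srx-12 (1116 CPM), srt-65 (746 CPM) and srv-28 (684 CPM). By library srx-12 had 562 CPM in the live library of the ceh-34 with unc-4 sort, 2365 CPM in the second flp-7 library, 150 and 511 CPM in the pan-neuronal libraries and 1007 CPM in the sensory neuron library. The lowest of these rests on 1 UMI. srx-12 averaged 984 ± 1078 CPM in ADF and 0.89 ± 1.30 CPM in the other classes (SD, n = 5 libraries), a log2 fold change of 9.18 (SE 0.61, edgeR adjusted p 1.61e-09).

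In ADL, a nociceptor that also senses pheromone, srg genes made up 34.8% of the member UMIs, and in ASI, which produces the dauer-inhibiting signal daf-7, 45.5%. AFD had 43.4%, ASK 21.8%, and the other chemosensory classes with a detected member at most 16.8%. By number, 5 srg and 6 srx genes were detected in ADL, and 5 srg and 3 srx genes in ASI. ADL had 3429 CPM and 19 detected members, with srg-5 at 314 CPM, srx-73 at 274 CPM and srg-15 at 271 CPM. srx-73 was even across libraries, 252, 165, 250, 334 and 253 CPM, and averaged 260 ± 61.6 CPM in ADL against 0.47 ± 0.68 CPM in the other classes (SD, n = 5 libraries, log2 fold change 7.86, SE 0.36, edgeR adjusted p 3.23e-07). ASI had 2658 CPM and 11 detected members, with srg-47 at 354 CPM, sru-5 at 321 CPM and srx-43 at 298 CPM. srg-47 ranged from 0 in the first flp-7 library to 900 CPM in the sensory neuron library (median 277), and srx-43 from 0 to 523 CPM (median 255) over the same 5 libraries. sru-5, above 0 in all 5, was the ASI member called higher with the filter, at 367 ± 167 CPM in ASI and 17.0 ± 14.4 CPM in the others (log2 fold change 4.64, SE 0.72, edgeR adjusted p 0.00135).

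ASH, the main nociceptor of the head, had 4032 CPM and 20 detected members, led by srx-111 (362 CPM), sru-46 (358 CPM) and srx-45 (315 CPM). It reached 20 cells in 2 libraries, so no test was made. srx-111 had 285 CPM in the eat-4 library and 492 CPM in the sensory neuron library, and sru-46 345 and 424 CPM. The annotation places srx-111 over T24E12.12 on the same strand, which itself had 311 CPM in ASH, so reads of the 2 genes may not have been told apart.

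Several members were shared by the phasmid neurons, PHB and PHA. PHB had 5391 CPM and 20 detected members, with srx-45 at 943 CPM, srx-38 at 747 CPM and sru-7 at 413 CPM. PHA had 2209 CPM and 11 detected members, with srx-38 at 345 CPM, sru-7 at 284 CPM and srx-128 at 247 CPM. In PHB srx-45 had 1032 CPM in the eat-4 library, 1183 and 702 CPM in the flp-7 libraries and 1219 CPM in the sensory neuron library. It averaged 881 ± 186 CPM in PHB and 29.6 ± 30.0 CPM in the other chemosensory classes (SD, n = 4 libraries, log2 fold change 5.51, SE 0.49, edgeR adjusted p 0.000648). srx-38 averaged 602 ± 376 CPM in PHB and 55.2 ± 56.9 CPM in the others (log2 fold change 4.28, SE 0.76, edgeR adjusted p 0.00612). In PHA it had 169, 348, 629, 0 and 171 CPM over 5 libraries, the 0 being a library in which srx-38 had no UMI at all.

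AWB, which senses repellent odours, had 2031 CPM and 10 detected members, with sru genes making up 39.0% of its member UMIs. sru-39 had 535 CPM, srg-30 223 CPM and srt-62 178 CPM. The 3 libraries gave sru-39 86.4, 546 and 776 CPM, the first of these resting on 1 UMI. Beyond AWB, sru-39 was detected in ASJ at 323 CPM, in ASH at 140.5 CPM, and in PVQ, AIN and RIC.

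AWC, an olfactory pair in which the left and right cells take the ON and OFF fates at random, had 2922 CPM. The 2 fates differed in their highest members. srt genes made up 92.9% of the member UMIs of AWC ON, while srx genes made up 75.6% of those of AWC OFF. srt-24 had 836 CPM in ON and 44.3 CPM in OFF cells, srt-28 682 CPM and 0 of its UMIs in OFF cells (up to 27.2 CPM at 95%), srt-42 592 CPM and 0, and srt-41 389 and 14.8 CPM. In the other direction srx-2 had 1756 CPM in OFF and 4.52 CPM in ON cells, and made up 58.0% of AWC OFF's member UMIs. srx-41 had 332 CPM in OFF cells and 0 in ON cells, and srt-53 251 and 18.1 CPM. Of the 11 members detected in ON or OFF cells, none was detected in both. This rests on the detection threshold: srt-24, srt-41, srt-53, srx-2 and srx-50 each had UMIs below it in the other fate. The matching share over all genes is not given here. AWC reached 20 cells in 2 libraries, eat-4 and sensory neurons, and was not tested; srx-2 had 236 and 818 CPM there, and srt-24 983 and 273 CPM.

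The 3 remaining classes, which sense salts or temperature or have minor chemosensory roles, had few members. AFD, the thermosensory neuron, had 523 CPM (428 to 633), with srg-50 at 212 CPM and srt-53 at 93.8 CPM detected. ASE, the main salt-sensing neuron, had 285 CPM (249 to 325), with srxa-5 at 92.0 CPM and srt-53 at 60.9 CPM. srxa-5 was found in the right cell ASER, at 121 CPM, and had 0 UMIs in the left cell ASEL, which allows up to 19.8 CPM at 95%. ASG had 94.4 CPM and no detected member, with 0 member UMIs in 3 of its 8 libraries and at most 126 CPM in any. In the order of the classes, AWA, ASJ and ASK were highest, but their library ranges overlap (2651 to 13605, 2622 to 9795 and 1883 to 7985 CPM), and so do those of PHB, ADF, ASH, ADL and ASI. The libraries of ASG, ASE and AFD (at most 126, 381 and 607 CPM) lay below every library of the other 11 classes, except the first flp-7 library of ASI at 273 CPM.

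Class by class tests against the pooled cells of the other 13 classes were possible for 11 classes with 3 or more libraries. With the filter on low counts, 44 members were left in at least 1 fit. All 44 were called higher in some class: sparse members pass the filter through the class where they are high, so the filtered counts below are given for completeness and are no measure of the members. The class p-values of single members given above carry the same limit. In these fits 52 pairs of member and class were higher in the class. Without it, 217 pairs were higher, covering 179 members, of which 144 were higher in 1 class, 32 in 2 and 3 in more. In ASJ 18 of 24 members were higher and 3 lower with the filter, beside 14.8% higher and 21.5% lower of all genes, and 60 of 222 were higher and 59 lower without it, beside 5.78% and 9.54%. ASK had 6 of 6 higher (all genes 16.7% higher and 11% lower), and 40 of 230 higher and 86 lower without the filter (5.13% and 13.6%). For ADL the counts were 10 of 11 higher and 1 lower (19.4% and 16.9%), and 28 of 224 higher and 87 lower without the filter (7.33% and 12.9%). ADF gave 4 of 6 higher and 1 lower (9.82% and 14.3%), and 18 of 227 higher and 100 lower without the filter (3.25% and 12.6%).

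AWA gave 5 of 9 higher and 2 lower (7.79% and 20.8% of all genes), and 17 of 222 higher and 77 lower without the filter (3.26% and 9.43%). PHB gave 3 of 4 higher and 1 lower (6.34% and 17.7%), and 16 of 228 higher and 26 lower without it (1.08% and 6.08%). In ASI 1 of 2 was higher and 1 lower (10.6% and 12%), and 14 of 229 higher and 31 lower without it (1.5% and 6.64%). PHA had 0 of 1 higher and 1 lower (10.2% and 22%), and 10 of 229 higher and 28 lower without it (1.01% and 6.37%). AWB had 5 of 5 higher (14.2% and 24.3%), and 9 of 222 higher and 41 lower without it (1.7% and 6.28%). ASE had 5 of 5 lower (13.3% and 22.8%), and 3 of 224 higher and 96 lower without it (3.9% and 11.1%). In ASG none passed the filter (9.43% and 20.1%), and 2 of 230 were higher and 120 lower without it (2.93% and 15.6%). A member that is high in a well-filled class such as ASK counts as lower in the others: srx-19 was called lower in 7 classes with the filter. Leaving out the sensory neuron library left 8 classes and 96 pairs higher without the filter, and 17 with it.

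Of the 132 members detected in the 14 classes, 97 (73.5%) were detected in 1 of them, 18 in 2 and 17 in 3 or more. By the same rule 78.4% of the other chemoreceptor genes and 33.1% of all genes detected in these classes were in 1 of them. sru-1, srv-15 and srx-114 reached 5 classes each, the most for any member. Among the 78 pairs of the 13 classes with a detected member, 44 shared none and 7 shared 5 or more. By the same rule 11 of 91 pairs shared none of the other chemoreceptor genes, and 0 of 91 shared none of all genes. Those lists are longer, with 320 and 5613 genes detected in the 14 classes against 132, so these counts are not like for like. ASH and PHB shared 9, 45% of each, ASJ and PHB shared 8 (20% and 40%), and PHA and PHB shared 8, 72.7% of PHA's and 40% of PHB's. ASI had 10 of its 11 members to itself among these classes, ASJ 24 of 40, ASK 13 of 20 and ADF 9 of 13, whereas PHA had 1 of 11 and PHB 5 of 20.

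On average, cells of most chemosensory classes held more than 1 member, while most cells of AFD, ASE and ASG held none. When each cell with at least 500 UMIs was thinned to 500, the mean number of members per cell was 4.04 in ASJ, 3.23 in AWA, 2.39 in PHB, 2.26 in ASK and 2.03 in ADF. It was 1.77 in ASH, 1.57 in ADL, 1.11 in ASI, 1.06 in AWB, 0.99 in AWC, 0.95 in PHA, 0.21 in AFD and 0.11 in ASE, against 0.043 in ASG and 0.0089 in body wall muscle. The unthinned means were 9.88 in ASJ, 5.18 in AWA, 5.08 in ADL, 4.79 in ASK, 4.08 in ADF and 3.87 in PHB. ASH had 3.50, ASI 2.46, AWC 1.74, AWB 1.65, PHA 1.34, AFD 0.41 and ASE 0.26. ASG had 0.10 and body wall muscle 0.064. Thinning left out 305 of 1098 ASJ cells, 169 of 506 AWA cells, 110 of 305 PHB cells, 603 of 1975 ASK cells, 170 of 782 ADF cells, 321 of 1176 ASG cells and 1727 of 5552 body wall muscle cells as too shallow. In ASJ 87.5% of the 793 cells deep enough had at least 2 members after thinning, and the fullest held 12. The same share was 22.6% in AWC and in PHA, 29.7% in AWB and 1.28% in AFD. Doublets were not called here, and the fullest unthinned cell, in ADL, held 28 members.

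Outside the chemosensory classes, a few sites were as strong as the leading members inside them. srg-25 had 2181 CPM (2103 to 2261) in AQR, an oxygen-sensing neuron, with a UMI in 73.9% of 1035 cells against 0.0652% of muscle cells. By library it had 2031, 582, 2461, 3107 and 1767 CPM in the eat-4, first and second pan-neuronal, sensory neuron and unc-86 libraries. In PQR, the tail neuron most like AQR, it had 17.0 CPM, and in URX, the third of these oxygen sensors, 0 UMIs (up to 8.44 CPM at 95%). PHA was its other detected class, at 136 CPM. Over 19 other sensory classes, AQR, PQR and URX among them, the members had 539 CPM with AQR and 91.6 CPM without it, and 4 classes had a detected member. The 90 remaining classes of other neurons had 244 CPM.

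srx-2 was shared by AWC OFF with a pair of interneurons. It had 1742 CPM (1472 to 2047) in RIS, a sleep-promoting neuron, in 66 cells, and 1433 CPM (1385 to 1482) in AIN in 3216 cells, against 1756 CPM in AWC OFF. By library AIN ran from 0 in the live library of the ceh-34 with unc-4 sort, where srx-2 had no UMI in any cell, to 1852 CPM in the second flp-7 library, with a median of 575 CPM over 8. RIS reached 20 cells in 1 library, the command interneurons, with 1610 CPM. RIS also carried srg-69 at 841 CPM, 659 CPM in that library, and srg-69 was detected in no chemosensory class. AIN also carried sru-47 at 254 CPM, again with no chemosensory class detected. Over 8 libraries sru-47 ran from 0 to 354 CPM in AIN, with a median of 54.3 CPM. The second flp-7 library gave 89.1% of its AIN UMIs.

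Some neurons of the pharynx, the feeding organ, held members that were also detected elsewhere. srv-7 had 1728 CPM (1646 to 1812) in I5, with 1563, 2148, 1089, 1082 and 1953 CPM over 5 libraries and a UMI in 73.3% of cells. It had 361 CPM in I6, from 7 UMIs, and 0 in I4, and 222 CPM in ASJ. It was also detected in PHA, ASH and PHB. srv-2 had 312 CPM in I5, and was also detected in PVT, ASJ and ASK. srx-45, the leading member of PHB, had 1965 CPM in M5, but from 27 UMIs in 46 cells (1295 to 2860 CPM), and was also detected in I2, I4, M2, M4 and MI. In AIM, an interneuron of the head, 6 libraries gave srx-45 778 to 1140 CPM with a median of 910 CPM. Each of the 2 ASH libraries was lower (238 and 288 CPM). The 4 PHB libraries gave 702 to 1219 CPM, with a higher median of 1107 CPM. K01B6.3, which overlaps srx-45 on the opposite strand, had 0 UMIs in M5.

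**Figure D4:**
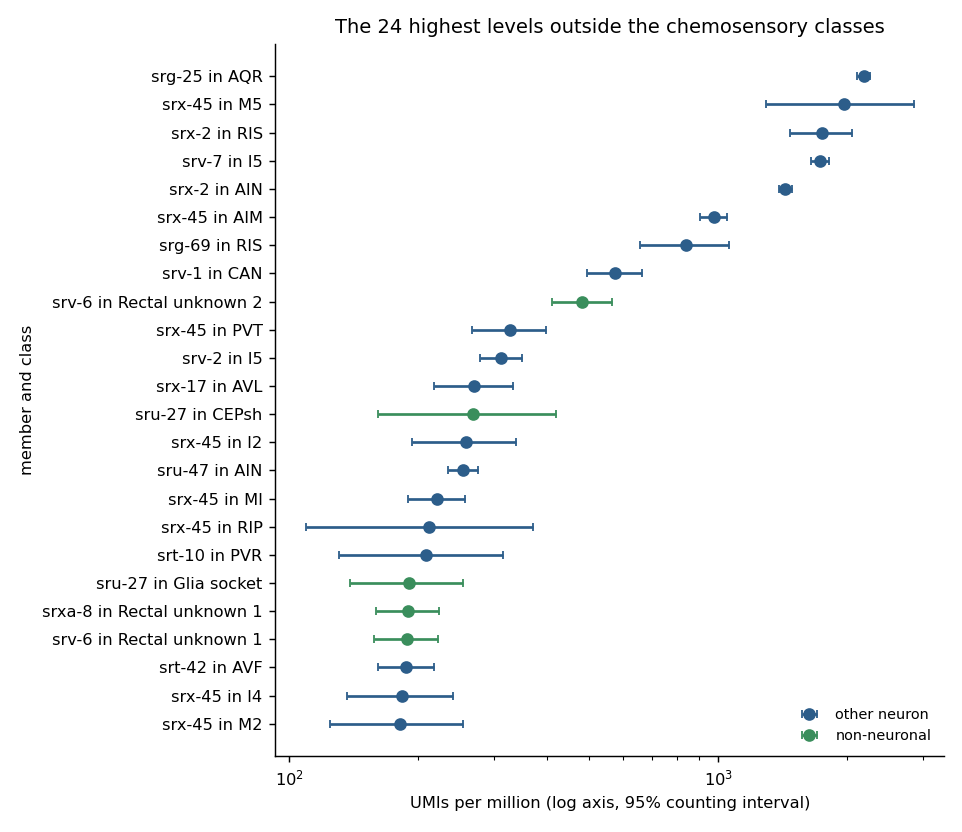
The 24 highest levels of a member in a class outside the amphid and phasmid classes, in CPM on a log axis, with 95% counting intervals. srg-25 in AQR, srx-45 in M5, srx-2 in RIS and AIN and srv-7 in I5 lie above 1000 CPM; M5 rests on 27 UMIs and has the widest interval of these.

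The members detected outside alone are 13 in all, and most were highest in a single neuron class. srv-1 had 574 CPM in CAN, a neuron along the excretory canal (572 CPM within the only library with 20 CAN cells, which gave 170 of its 181 UMIs), and 120 CPM in intestine. srx-17 had 270 CPM in AVL, with 296, 405 and 205 CPM over 3 libraries. srt-10 had 208 CPM and srg-37 104.2 CPM in PVR, srx-115 147 CPM in RID, srt-21 128 CPM in SIB and srx-123 76.3 CPM in AUA. In non-neuronal cells 7 members were detected. srv-6 had 483 CPM and srxa-8 110 CPM in the class named Rectal unknown 2, and srxa-8 190 CPM in Rectal unknown 1, with 126, 222 and 278 CPM over 3 libraries. sru-27 had 268 CPM in the cephalic sheath glia, 190 CPM in socket glia and 123 CPM in sheath glia. sru-40 had 76.3 CPM in intestine, where 5.03% of cells had some member UMI at a median depth of 124 UMIs.

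srt-42 had the widest distribution, 30 classes. Its highest level was in AWC ON (592 CPM, with 478 CPM in the eat-4 and 585 CPM in the sensory neuron library), and 25 of its classes were other neurons at 50.2 to 188 CPM. It was the only member detected in progenitors, at 176 CPM in P0.a (a UMI in 35.2% of 1064 cells), 98.3 CPM in P0.p, 83.4 CPM in P0 and 51.3 CPM in P0.ap/P1.aap. Among P-lineage libraries, progenitors of the youngest (11 to 14 h) had 73.6 CPM, those of the middle age 35.5 CPM, and those of the oldest pair 38.8 and 24.0 CPM. Neurons of the same libraries had 111 CPM in the youngest (18 UMIs), 90.1 CPM in the middle one, and 84.0 and 47.9 CPM in the oldest pair. The make-up of classes changes with age too, and its part in these values was not tested. Over all neurons of a library, srt-42 was lowest in the pan-neuronal libraries, at 3.97 and 5.69 CPM, and 98.7 CPM in the first flp-7 library. Muscle had srt-42 in 0.81% of cells. Y46H3A.4, which overlaps srt-42 on the opposite strand, had 0 UMIs in AWC ON and its highest level, 6099 CPM, in Rectal unknown 1.

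Members listed for a published role or marker use differed in level. srg-47 was the highest detected member of ASI, at 354 CPM. srx-43 was detected in ASI alone, at 298 CPM. srx-44, its neighbour on chromosome V, was detected in ADL at 82.3 CPM (33.1 to 137 CPM over 5 libraries) and in ASJ. srg-37 was detected in PVR alone, from 11 UMIs in 9 cells of 97, while 126 of its 190 UMIs were in AIZ, at 31.5 CPM. It overlaps srg-36 on the same strand. srg-34 had 29.0 CPM in AWA and 11.1 CPM in ASK, and srg-8 had 4.33 CPM in ASK, all under the threshold. srg-2 had 298 CPM in ASK, with a UMI in 22% of cells.

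Neighbouring members were often detected in the same class. The chromosomes held 144 members on V, 48 on IV, 26 on II, 17 on III, 6 on X and 4 on I, and 110 members (44.9%) lay directly next to another member in the WBcel235 gene order, in 40 runs of which 15 had 3 or more. Where both neighbours were detected, 16 of 28 pairs (57.1%) shared a class, against 373 of 2100 other pairs of the same family (17.8%) and 1339 of 8312 pairs of different families (16.1%). These shares are descriptions, since neighbours include recent duplicates whose reads the counting may have split. Neighbouring pairs numbered 70 in all, and pairs of the same run have members in common, so they are not independent. No such share was computed for neighbouring genes in general. The longest run, 9 srg genes on chromosome III, had 6 detected members and all 6 in ASK: srg-2 at 298 CPM, srg-5 at 204 CPM (below its 314 CPM in ADL), and srg-1, srg-4, srg-6 and srg-9 at 54.4 to 100 CPM. On chromosome IV, sru-2 led in ASJ at 523 CPM, sru-1 in PHB at 304 CPM, sru-6 in ADL and sru-3 in ASK, while 3 of the 4 detected members of that run, sru-1, sru-2 and sru-3, were detected in ASK. srx-66, srx-67 and srx-68 on chromosome V were each detected in AWA alone, with 69.1, 268 and 5837 CPM. srx-80 and srx-84 were detected in ASJ alone, srt-64 in ADF and srt-65 in ADF and ADL. Other neighbours shared no class: srg-25 was in AQR and PHA and srg-27 in ASK (270 CPM). srx-20, next to srx-19, had 12 UMIs in all and was detected nowhere.

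**Figure D5:**
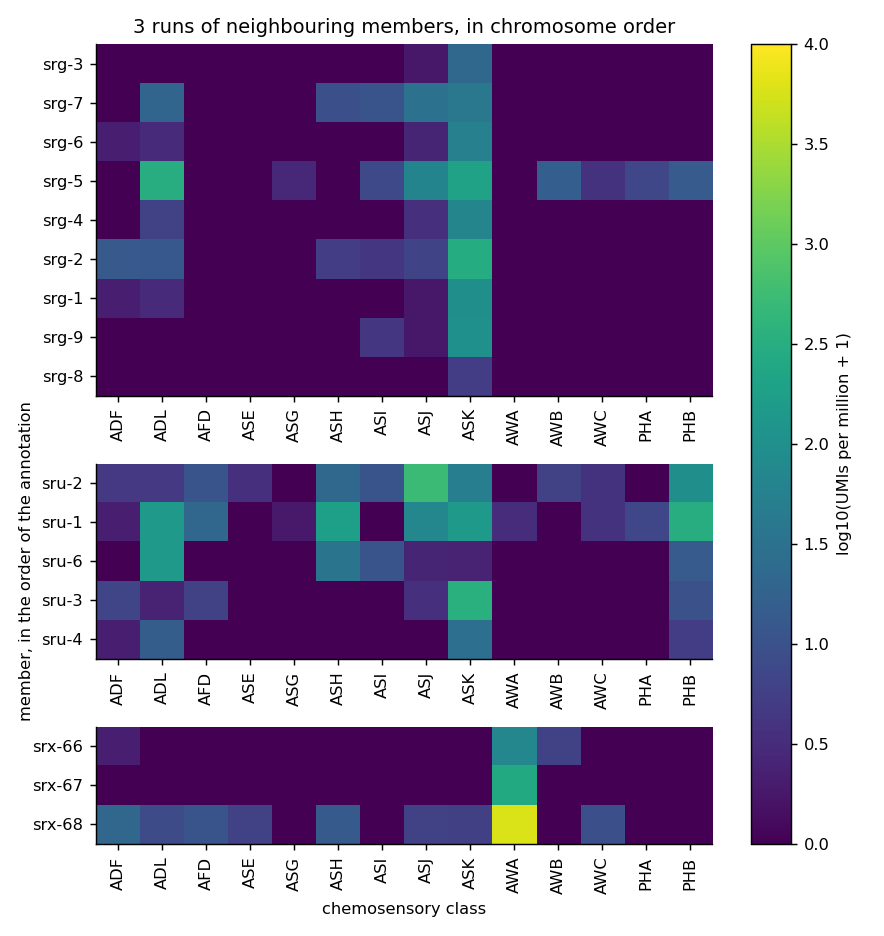
Level (log10 of CPM plus 1) in the 14 chemosensory classes of 3 runs of neighbouring members, each run in the order of the annotation: 9 srg genes of chromosome III, 5 sru genes of chromosome IV and 3 srx genes of chromosome V. The 6 detected srg genes are all above 50 CPM in the ASK column, though srg-5 is brighter in ADL, and the srx run is brightest in the AWA column, while the sru genes differ in their brightest class.

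The 100 members detected nowhere had between 5 and 291 UMIs, with a median of 20, and for 68 of them most UMIs were in chemosensory cells. For some, level and not depth kept them under the threshold: srt-63 had 291 UMIs, 47 of them in Pn.ap at 5.53 CPM, srx-71 had 143 of its 149 UMIs in the excretory gland cell at 9.24 CPM, and srt-48 had 45.9 CPM in AQR. For those with few UMIs, missing the threshold does not show absence. Between 21 members (sensory neuron library) and 234 (15.5 to 18.5 h P-lineage library) had no UMI in a library, and a gene found in few cells of a library may have been set to 0 there by the authors' processing. The annotation places 35 members over another protein-coding gene.

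Most genes of a list for sensory transduction and receptor trafficking were also higher in chemosensory cells. They were listed for such roles, so their direction is a description and no independent support. Whether they act with these receptors was not tested. Of 22 listed genes of sensory transduction and receptor trafficking, 14 passed the filter. In chemosensory cells 10 were higher and 0 lower than in other neurons (edgeR), beside 15.9% higher and 19.8% lower of all genes. Some of them, such as ocr-2 with 49 UMIs in other neurons against 1301, passed the filter through the side where they are high. Without the filter 18 of 22 were higher and 0 lower, beside 16.9% and 14.6% of all genes. rgs-3, a regulator of G protein signalling, averaged 1268 ± 584 CPM in chemosensory cells and 3.63 ± 3.84 CPM in other neurons (SD, n = 12 libraries, log2 fold change 8.81). The G protein subunits gpc-1, gpa-3 and odr-3 had log2 fold changes of 7.14, 6.67 and 5.32, and the channel subunits ocr-2 and tax-2 6.96 and 5.20. odr-4 and odr-8, which carry receptors to the cilia, had 4.47 (SE 0.28) and 3.75 (SE 0.16), each with 12 of 12 libraries higher. The arrestin arr-1 (0.95), the kinases egl-4 (-0.08) and grk-2 (-0.23) and the calcineurin tax-6 (-0.37) were not called. The other chemoreceptor families, 757 genes, had 48.0% detected and 62.9% of their UMIs in chemosensory cells, against 59.2% and 59.4% for the Srg superfamily. Without the filter 521 of 743 of these genes were higher and 18 lower, beside the same 16.9% and 14.6% of all genes.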

How the data were processed

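Raw UMI counts per gene and cell were deposited by the authors as 1 matrix, beside a table that gives every cell its library, tissue and class. Cell Ranger 6.0.0 is named in the submitters' processing notes. The genome build, cell filters, background correction, doublet treatment, strand of counting and method of naming classes were not given in the sources used here. The 11 to 14 h P-lineage library was matched to its labels by elimination.

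Counts were summed per class, or per library and side, with no filter on cells; 898 cells of classes marked with a question mark and 94 of unknown type were left out. Doublets were not called. Chemosensory cells were compared with other neurons, and each class with the other 13, by edgeR 4.0.16 quasi-likelihood tests (R 4.3.3, TMM, filterByExpr, library as a block, since both sides come from the same library), with Benjamini-Hochberg adjusted p under 0.05 and a change of 1 or more on the log2 scale. The first comparison needed 50 cells of each kind in a library, the second 20, in 3 libraries or more. Most libraries are different strains and ages, so p-values measure the spread between these libraries. DESeq2 1.42.0 was an alternative. The tests were tested on simulated data: 45% of 200 changed genes were recovered in the first comparison (40% at 2-fold and 50% at 4-fold), 22.5% in ASK, 21% in ADL and 9.5% in ASJ.

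Members named are the 3 highest detected per class, the 5 smallest p in each direction of the first comparison, the strongest sites outside, members with published roles, the 3 in most classes and the most abundant neighbouring pairs; others named were chosen after their values were seen. The members, lists and rules were chosen with earlier results of these data known.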

Additional observations from a re-analysis of the deposited data

Results flagged for a closer look

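Cells left out of the classes held some member UMIs. The class named I1? had 52.7 CPM (30.1 to 85.6) from 16 UMIs in 274 cells, 7 of them srt-42. The class named P1.p? had 58.1 CPM (48.7 to 68.8) from 135 UMIs in 624 cells, 123 of them srt-42. The 94 non-neuronal cells of unknown type had 6.81 CPM (2.21 to 15.9) from 5 UMIs, against 4.08 CPM for 3 counts.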

How the results depend on the processing

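Of the alternatives, the filter on low counts moved the results most. In the comparison of chemosensory cells with other neurons, 2 members were higher and 0 lower with it, and 159 were higher and 6 lower without it. A minimum of 20 cells gave 1 higher, and cells with at least 500 UMIs gave 0 higher (by edgeR). Leaving out each library in turn gave 2 to 4 higher and 0 lower. Without the filter, leaving out a library gave 146 to 163 higher and 3 to 6 lower, and DESeq2 61 higher and 0 lower. With no replicate block 2 were higher with the filter, and without the filter 194 were higher, 158 of them shared, and 3 lower. Each setting combined with no filter was chosen after seeing the data.

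Among single classes, 52 pairs of member and class were higher with the filter and 217 without it. Leaving out a library gave 17 to 73 pairs with the filter and 96 to 218 without it; without the sensory neuron or a pan-neuronal library, 8 of 11 classes could be tested, and without the first or second pan-neuronal library 131 and 129 pairs were higher. With no replicate block and no filter, 205 pairs were higher, 195 of them shared. DESeq2 size factors moved the median of all genes by 0.15 in ASJ and 0.23 in PHB (log2).

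Detection gave 283 pairs of member and class, 439 at 25 CPM and 5 UMIs, and 172 at 100 CPM and 20 UMIs; leaving out a library gave 233 to 290. egl-4, at -0.08, was 0.098 with a minimum of 20 cells, 0.0196 with 100 cells and 0.0789 in cells with at least 500 UMIs, and ran from -0.16 to 0.12 when a library was left out, above 0 without 6 of 12. With DESeq2 and no filter, srt-48, sru-44 and srg-65 were at 2.13, 2.31 and 1.92. The cause was not tested. Depth limits what is called: the median member had 92 UMIs in all.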
